A study of Homo sapiens with 6 samples.

Results

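The genes described here are the sensors and switches of the unfolded protein response and of the integrated stress response: ERN1 (IRE1), EIF2AK3 (PERK), ATF6 and ATF6B, the further eIF2-alpha kinases EIF2AK1 (HRI), EIF2AK2 (PKR) and EIF2AK4 (GCN2), the IRE1 effector XBP1, and PPP1R15A (GADD34) and PPP1R15B (CReP), which direct a phosphatase to eIF2-alpha. They were picked by name, and all 10 had exactly 1 row with their symbol alone, out of 22465 genes measured, so no choice between rows was needed. The list was drawn up with earlier results in view, the rise of ERN1 among them, so the members' differences are not independent support for a response of this pathway. Expression was measured on Affymetrix transcriptome arrays in PC3, an established line grown from a bone metastasis of a human prostate tumour. Cells received, by transient transfection, either a synthetic precursor of miR-130a (3 arrays) or a negative control precursor (3 arrays), and the series describes 3 independent experiments in this 1 line, so p-values cover the spread between these cultures only. Time after transfection and dose are not given in the sources used here. All 4 epithelial markers checked (KRT8, KRT18, EPCAM and CDH1) lay above the median of all values on the arrays, but so did 6 of the 10 measured markers of fibroblasts, leukocytes and endothelium, so a level above that median does not mark a cell type here. The leukocyte genes PTPRC and LYZ and the fibroblast genes DCN and LUM lay below it. Of these 10, only LYZ passed the test, 0.46 higher on the log2 scale (limma adjusted p = 0.0303) at a level below that median with miR-130a also. It no longer passed when negative control 1 or any of the 3 miR-130a arrays was omitted (adjusted p = 0.0665 to 0.128), nor with all rows tested (adjusted p = 0.114). The mean log2 level of the measured leukocyte markers, PTPRC, CD3E and LYZ, was 3.96 to 4.12 on the control arrays and 4.18 to 4.20 on the miR-130a arrays. Of these, only LYZ was higher with miR-130a, while CD3E differed by -0.04 and PTPRC by -8.6e-05. The part of RNA from such other cells in any result was not tested.

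Misfolded protein in the endoplasmic reticulum (ER) is read by membrane sensors. IRE1 cuts an intron out of XBP1 mRNA so that an active transcription factor is made, ATF6 travels to the Golgi and is cleaved into a transcription factor, and PERK phosphorylates the translation factor eIF2-alpha. HRI (haem shortage and mitochondrial stress), PKR (double-stranded RNA) and GCN2 (uncharged tRNA and stalled ribosomes) phosphorylate the same residue, after which most translation slows while that of ATF4 mRNA rises. GADD34 and CReP bring protein phosphatase 1 to eIF2-alpha and so reverse the signal; GADD34 is known as the stress-induced subunit and CReP as the constitutive one. An array row reads the amount of a gene's RNA and neither splicing of XBP1 nor cleavage or phosphorylation of any of these proteins.

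With miR-130a, 4 of the 10 genes rose at an adjusted p below 0.05 and none fell: ERN1, PPP1R15A, PPP1R15B and XBP1. Among all 22465 genes 4.23% passed in either direction (limma, Benjamini-Hochberg adjustment over all of them), 2.48% as rises and 1.74% as falls. The remaining 6 genes, which are PERK, both ATF6 paralogs and the kinases HRI, PKR and GCN2, did not pass and differed by -0.09 to 0.12 on the log2 scale. The median difference of the 10 genes was 0.10, against -0.01 over all genes tested. Values of the groups did not overlap for 5 of the 10 genes, all 5 higher with miR-130a, a pattern shown by 23.6% of all genes in either direction and by 11.7% upwards. The 10 rows lay above the median of all values, so none was judged dim.

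**Figure D1:**
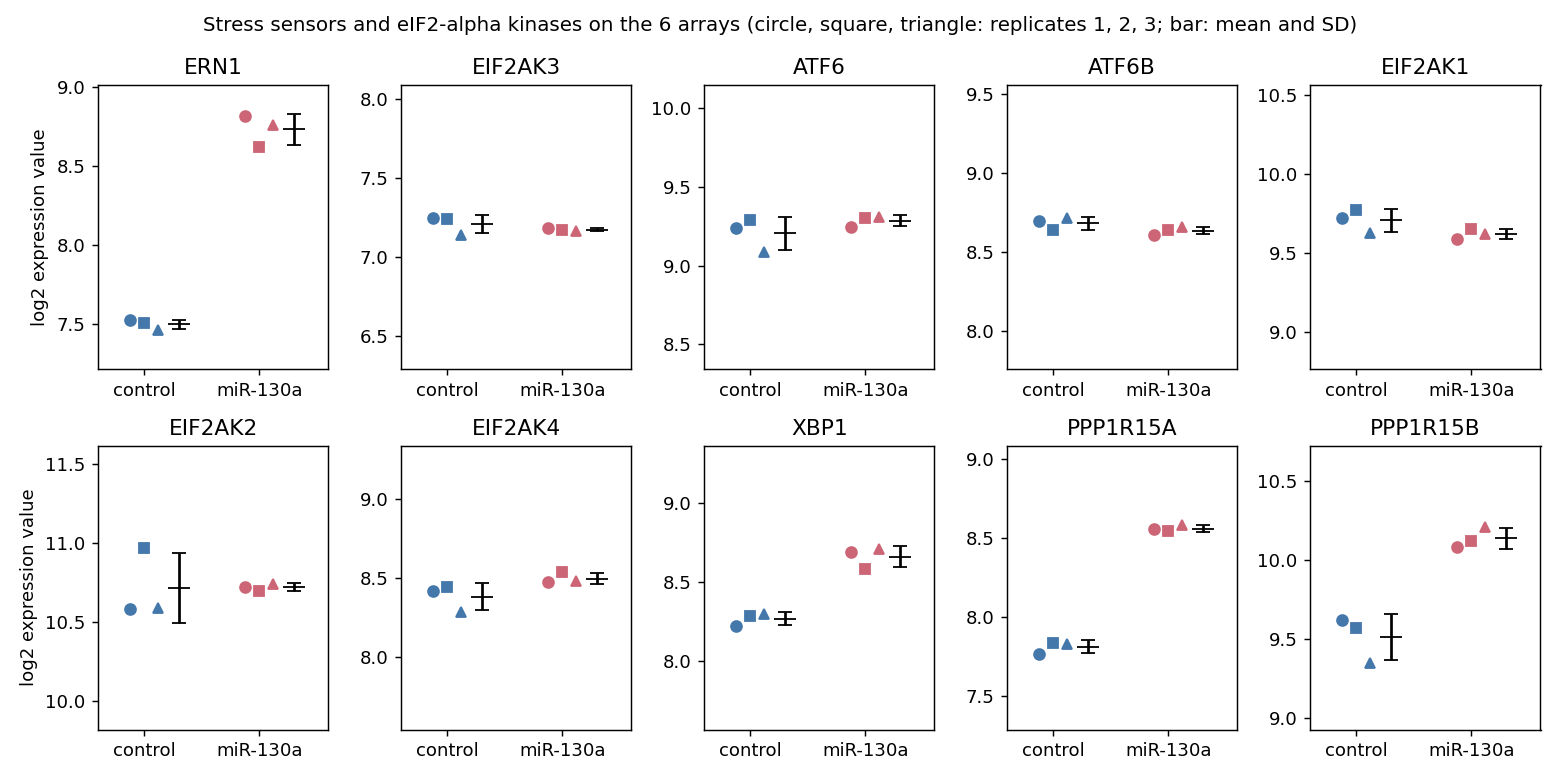
Log2 expression value (vertical axis, a span of equal height in each panel) of each of the 10 genes on the 3 control arrays (blue) and the 3 miR-130a arrays (red), with the mean and SD of each group as black bars. The miR-130a points stand clear of the control points for ERN1, PPP1R15A, PPP1R15B and XBP1, while the other panels show groups at nearly equal height, with EIF2AK2 spread over 10.58 to 10.97 in controls.

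The start regions of the 4 genes that rose are shown because the response elements of these pathways are known to lie close to the start sites of their targets. Each is the RefSeq window of 250 bases before to 50 after the start of the gene (GRCh38.p14), read 5′ to 3′ on the strand of the gene, and capitals mark the motif found in it. The windows lie at chr17:64130095-64130394 on the minus strand for ERN1, chr22:28800520-28800819 on the minus strand for XBP1, chr19:48872171-48872470 on the plus strand for PPP1R15A and chr1:204411768-204412067 on the minus strand for PPP1R15B.
ERN1: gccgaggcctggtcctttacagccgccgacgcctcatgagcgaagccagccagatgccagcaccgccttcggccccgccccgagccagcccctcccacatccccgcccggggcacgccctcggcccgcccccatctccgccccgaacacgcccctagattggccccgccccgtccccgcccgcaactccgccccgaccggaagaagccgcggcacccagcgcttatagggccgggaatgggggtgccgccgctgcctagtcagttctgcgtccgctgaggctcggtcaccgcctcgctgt
XBP1: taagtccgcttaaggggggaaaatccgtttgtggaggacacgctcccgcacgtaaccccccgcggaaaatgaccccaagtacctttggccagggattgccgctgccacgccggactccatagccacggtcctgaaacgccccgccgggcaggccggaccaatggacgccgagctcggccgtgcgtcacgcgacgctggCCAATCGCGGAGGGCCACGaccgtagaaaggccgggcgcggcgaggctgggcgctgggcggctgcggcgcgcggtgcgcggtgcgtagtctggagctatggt
PPP1R15A: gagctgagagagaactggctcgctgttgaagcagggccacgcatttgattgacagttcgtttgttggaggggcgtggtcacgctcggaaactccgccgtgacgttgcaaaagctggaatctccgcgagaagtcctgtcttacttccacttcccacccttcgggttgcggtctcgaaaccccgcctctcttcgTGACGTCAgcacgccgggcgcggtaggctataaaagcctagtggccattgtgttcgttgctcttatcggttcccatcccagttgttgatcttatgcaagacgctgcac
PPP1R15B: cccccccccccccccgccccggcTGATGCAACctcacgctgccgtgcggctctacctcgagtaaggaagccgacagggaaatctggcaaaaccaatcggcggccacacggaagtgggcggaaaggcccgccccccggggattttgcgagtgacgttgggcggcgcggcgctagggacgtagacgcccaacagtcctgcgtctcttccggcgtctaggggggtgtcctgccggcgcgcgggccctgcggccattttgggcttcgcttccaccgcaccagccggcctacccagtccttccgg

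Both strands of the windows were searched for 4 motifs: the ER stress response element bound by ATF6 with NF-Y (CCAAT and CCACG with 9 bases between them), the core of the unfolded protein response element bound by XBP1 (TGACGTGG), the ATF4 and C/EBP element (TGATGNAAN) and the cyclic AMP response element bound by CREB and ATF factors (TGACGTCA). The XBP1 window held the ER stress response element 52 to 34 bases before the start site, a motif found in 0.0769% of the 35116 RefSeq windows. PPP1R15A held the cyclic AMP response element 58 to 51 bases before the start site (1.85% of windows), and PPP1R15B held the ATF4 and C/EBP element 227 to 219 bases before it (3.61% of windows). The ERN1 window held none of the 4 motifs, nor did those of EIF2AK2, EIF2AK3, EIF2AK4, ATF6 and ATF6B; the EIF2AK1 window was not analysed here. G and C made up 73.7% of the ERN1 window, 68.7% of the XBP1 window, 69.7% of the PPP1R15B window and 56% of the PPP1R15A window, against a median of 58.7% over all windows. Among members that did not pass, the share was 72.3% for EIF2AK2, 66% for EIF2AK4, 57.7% for EIF2AK3, 57% for ATF6B and 47% for ATF6. These matches describe letters only, and binding was not measured.

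ERN1, the sensor kinase and RNase that starts the XBP1 branch, read 7.52, 7.50 and 7.46 in controls 1, 2 and 3 and 8.82, 8.62 and 8.76 in the corresponding order with miR-130a (log2; the same order is used for each gene below). The controls lay within 0.06 of each other, and the lowest miR-130a array stood 1.10 above the highest control. The difference of 1.24 (SE 0.062, 95% interval 1.09 to 1.38) corresponds to a level 2.36-fold higher, with an interval of 2.13-fold to 2.61-fold (limma adjusted p = 0.000262). Of all genes tested, 99.97% changed by less. ERN2, the paralog of ERN1 known from mucosal epithelium, differed by 0.02 (limma adjusted p = 0.974).

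EIF2AK3, which encodes PERK, the sensor that is at once an eIF2-alpha kinase, read 7.25, 7.24 and 7.14 in controls and 7.18, 7.17 and 7.16 with miR-130a. All 3 miR-130a values lay inside the range of the controls. The difference was -0.04 (SE 0.051, 95% interval -0.16 to 0.08, limma adjusted p = 0.861), an interval that ends well below that of ERN1.

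ATF6, the sensor released as a transcription factor in the Golgi, read 9.24, 9.29 and 9.09 in controls and 9.24, 9.30 and 9.31 with miR-130a, a difference of 0.08 (95% interval -0.07 to 0.23, limma adjusted p = 0.684). Its paralog ATF6B read 8.69, 8.64 and 8.71 in controls and 8.61, 8.64 and 8.65 with miR-130a, a difference of -0.05 (95% interval -0.16 to 0.07, limma adjusted p = 0.774). The groups overlapped for both. A further 3 rows carried ATF6B together with its older symbol, were outside the rule, and differed by -0.05 each. Of the 4 ER sensor genes, ERN1 was therefore the only gene past the threshold, and the intervals of the other 3 had their upper ends at 0.07 to 0.23, below the lower end of 1.09 for ERN1.

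**Figure D2:**
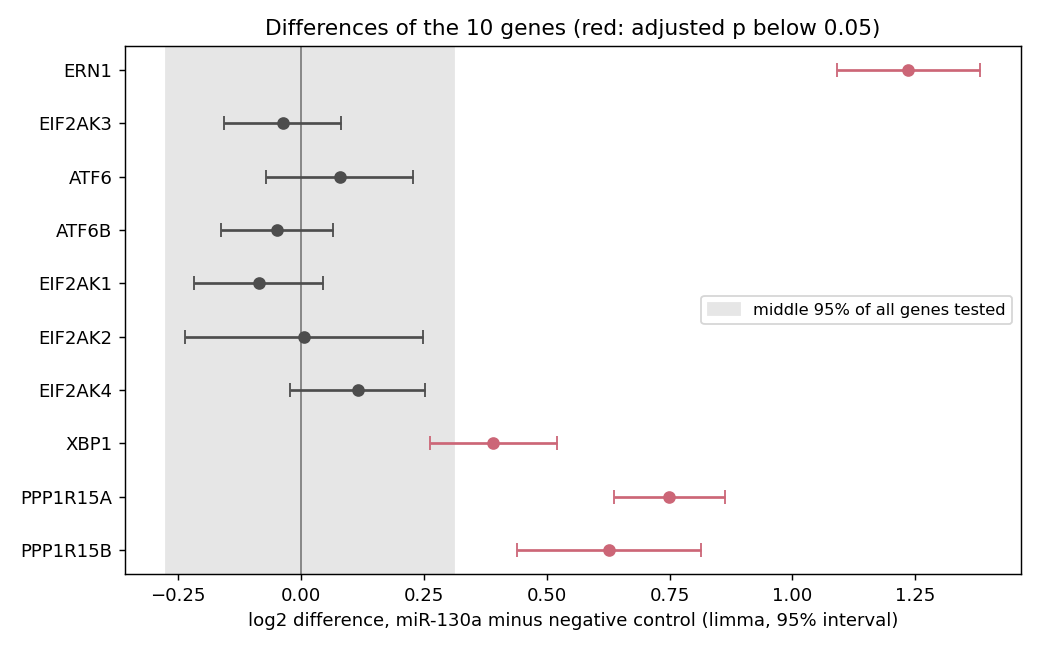
Difference of mean log2 values, miR-130a minus negative control (horizontal axis), for each of the 10 genes, with limma's 95% interval; red points have an adjusted p below 0.05. The grey band holds the middle 95% of the differences of all genes tested, from -0.28 to 0.31; the points of ERN1 at 1.24, PPP1R15A at 0.75, PPP1R15B at 0.63 and XBP1 at 0.39 lie to its right.

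Among the kinases that act outside the ER, EIF2AK4, the GCN2 sensor of amino acid shortage, read 8.42, 8.44 and 8.29 in controls and 8.47, 8.54 and 8.48 with miR-130a. The groups did not overlap, but they were only 0.03 apart, and the difference of 0.12 did not pass (95% interval -0.02 to 0.25, limma adjusted p = 0.408). EIF2AK1, the haem-regulated kinase HRI, read 9.72, 9.77 and 9.63 in controls and 9.59, 9.66 and 9.62 with miR-130a, a difference of -0.09 (95% interval -0.22 to 0.04, limma adjusted p = 0.557). Its lowest control, array 3, lay among the miR-130a values.

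EIF2AK2, the double-stranded RNA sensor PKR and an interferon-induced gene, read 10.58, 10.97 and 10.59 in controls and 10.72, 10.69 and 10.74 with miR-130a. Control 2 stood apart from controls 1 and 3, and its SD of 0.22 in controls was the widest of the 10 genes, against 0.02 with miR-130a. The difference was 0.01 (95% interval -0.24 to 0.25, limma adjusted p = 0.996). Without control 2 it was 0.13, without control 1 it was -0.06 and without control 3 -0.06, none past the threshold. The gene overlaps GPATCH11 in the RefSeq annotation, as EIF2AK1 overlaps AIMP2 and ANKRD61, and EIF2AK3 overlaps a long noncoding antisense RNA. Whether probes are shared was not examined.

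XBP1, the mRNA that IRE1 cuts, read 8.22, 8.29 and 8.30 in controls and 8.69, 8.58 and 8.71 with miR-130a. The lowest miR-130a value stood 0.29 above the highest control. The difference of 0.39 (SE 0.055, 95% interval 0.26 to 0.52) equals 1.31-fold (limma adjusted p = 0.0102). Its call was lost with array miR-130a 1 left out (difference 0.38, adjusted p = 0.0741), with array miR-130a 3 left out (difference 0.37, adjusted p = 0.0706), and when all 67528 rows with values were tested (adjusted p = 0.0594); the difference itself stayed between 0.37 and 0.43 under the alternatives run.

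PPP1R15A, the stress-induced GADD34, read 7.76, 7.84 and 7.83 in controls and 8.56, 8.54 and 8.58 with miR-130a. Both groups were tight, with SDs of 0.04 and 0.02, and stood 0.71 apart at their nearest values. It rose 1.68-fold (difference 0.75, SE 0.049, 95% interval 0.64 to 0.86, limma adjusted p = 0.000605). PPP1R15B, the constitutive CReP, read 9.62, 9.57 and 9.35 in controls and 10.08, 10.12 and 10.21 with miR-130a. Control 3 was the lowest array, and the nearest values of the groups were 0.46 apart. It rose 1.54-fold (difference 0.63, SE 0.080, 95% interval 0.44 to 0.81, limma adjusted p = 0.00692). The 3 catalytic subunits of protein phosphatase 1 that these proteins recruit, PPP1CA, PPP1CB and PPP1CC, differed by -0.02, 0.03 and -0.00057 and did not pass. These 3 were named after their values were seen.

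Control array 3 correlated less well over all rows with the other controls (r = 0.992) than these did with each other (r = 0.996), and held the lowest control value for 6 of the 10 genes. How often it was the lowest control over all genes was not counted. Its median over all rows was 5.08, against 4.97 in control 1 and 4.96 in control 2. Without it the same 4 genes rose, with 10% of all genes called; the difference of PPP1R15B was then 0.54 and that of XBP1 0.41. Over the 10 genes the median SD was 0.07 in controls and 0.03 with miR-130a, and over all genes 0.10 and 0.04.

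The 6 genes whose values over the 6 arrays, each set around its own mean, came closest to those of ERN1 were THBS1, STC2, IL1A, SERPINB4, VAV3 and SLC7A11. The root mean square difference from ERN1 was 0.06 for THBS1, which encodes the matrix protein thrombospondin, and 0.07 for both the secreted glycoprotein gene STC2 and the cytokine gene IL1A. It was 0.09 for SERPINB4, whose near-identical paralog SERPINB3 makes its value uncertain, 0.10 for VAV3 and 0.11 for the cystine transporter SLC7A11. VAV3 read 6.02, 6.08 and 5.93 in controls and 7.10, 7.11 and 7.07 with miR-130a. Among the members, PPP1R15A ranked nearest to ERN1, at a root mean square difference of 0.25 and in place 49, followed by PPP1R15B in place 94 and XBP1 in place 284. This likeness is mostly one of size and direction between the groups and is a description over 6 arrays.

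**Figure D3:**
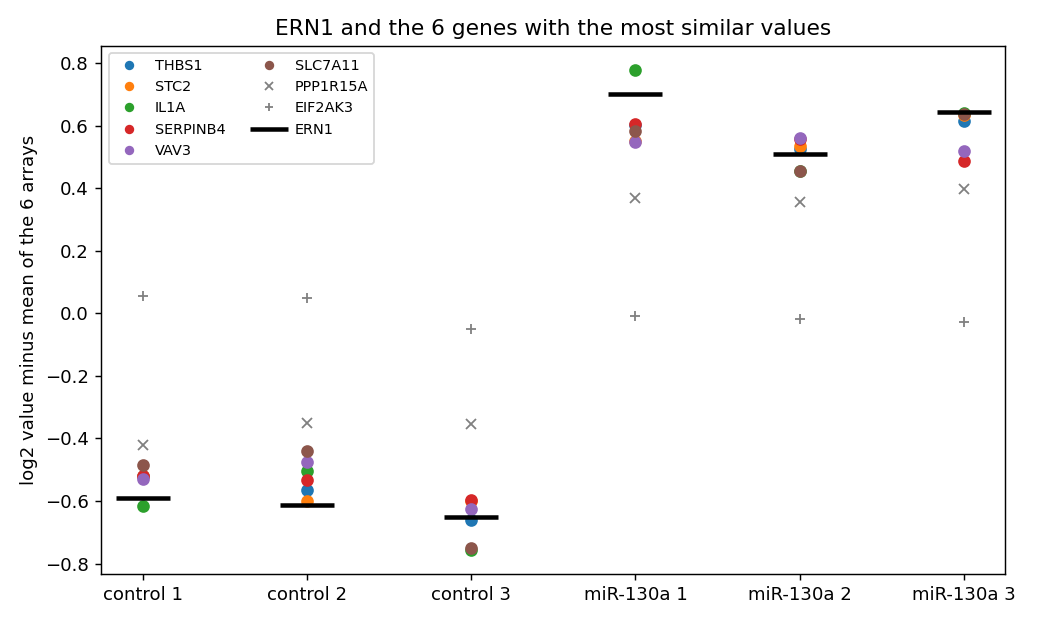
Log2 value minus the mean of the 6 arrays (vertical axis) on each array (horizontal axis) for ERN1 (black bars) and the 6 most similar genes (coloured points), with PPP1R15A and EIF2AK3 as grey crosses. The 6 genes step up by 1.09 to 1.25 between the group means, next to 1.24 for ERN1, PPP1R15A takes a smaller step of 0.75, and EIF2AK3 stays near 0 (difference -0.04).

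The pathway around these sensors was read from 6 lists chosen with earlier results in view, which hold 96 genes, 90 of them measured. Of 24 measured targets of ATF4 and CHOP, the transcription factors downstream of the eIF2-alpha kinases, 20 rose and none fell, with a median difference of 0.46; 2.48% of all genes rose and 1.74% fell. The count was 14 without miR-130a 1 and 14 without miR-130a 3, fits that called 1.11% and 1.05% of all genes in either direction. Leaving out any other array gave 18 to 21, with 1.63% to 10% of all genes called. The glutathione-degrading enzyme CHAC1 went from 7.86 ± 0.06 to 9.55 ± 0.04 (log2, SD, n = 3 per group). The serine synthesis enzyme PSAT1 rose 2.09-fold, the pseudokinase TRIB3 2.05-fold, the mTORC1 inhibitor DDIT4 2.03-fold, the amino acid transporter SLC7A5 1.59-fold and STC2 2.21-fold (limma adjusted p = 0.000261 to 0.000911). ATF4 itself, which is counted among the 24 and was named after its values were seen, rose 1.30-fold, from 9.70 ± 0.03 to 10.08 ± 0.05 (SD, n = 3 per group; limma adjusted p = 0.00773), a call lost when array miR-130a 1 (adjusted p = 0.0525) or array miR-130a 3 (adjusted p = 0.0508) was left out and when all rows were tested (adjusted p = 0.0509). DDIT3, which encodes CHOP, is also counted among the 24 and was named after its values were seen. It rose 2.13-fold, from 6.17 ± 0.23 to 7.26 ± 0.05 (SD, n = 3 per group, limma adjusted p = 0.00286). Its own result under the alternatives was not examined. The 4 targets that did not pass were CEBPB, ERO1A, TNFRSF10B and VLDLR, with differences of 0.28, 0.21, 0.08 and 0.03. CEBPB passed as a rise without negative control 3 (limma adjusted p = 0.0102), a fit that called 10% of all genes. 6 of the 22 windows of this list in RefSeq held the ATF4 and C/EBP element, those of ATF3, ASNS, CARS1, SLC3A2, CHAC1 and AARS1, against 3.61% of all windows.

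Of 12 measured ER chaperone and degradation genes known as ATF6 targets, 3 rose, none fell, and the median difference was 0.01, again beside 2.48% rises and 1.74% falls over all genes. HERPUD1, which serves degradation of ER proteins, rose 1.48-fold (difference 0.57, SE 0.066, limma adjusted p = 0.00441). HSPA5, the chaperone BiP that holds the sensors inactive, rose 1.24-fold (difference 0.31, limma adjusted p = 0.0197), and the chaperone HYOU1 rose 1.18-fold (difference 0.24, limma adjusted p = 0.034). The call of HSPA5 was lost when negative control 1 or any of the 3 miR-130a arrays was left out (adjusted p = 0.0823 to 0.121), and that of HYOU1 when any array except negative control 3 was (adjusted p = 0.0742 to 0.185). HYOU1 also missed the threshold with median centring (adjusted p = 0.0598) and with the replicate number as a block (adjusted p = 0.087), and both HSPA5 and HYOU1 did with all rows tested (adjusted p = 0.107 and 0.175). The co-chaperone DNAJB11 was 0.30 lower without passing (limma adjusted p = 0.0535). It passed as a fall with dim rows left out (adjusted p = 0.0278) or with trend and robust options (adjusted p = 0.0228), whereas the mean of its rows differed by only -0.09 (adjusted p = 0.521). PDIA6 differed by 0.13 and the secreted factor MANF by -0.15. 5 of the 13 RefSeq windows of this list held the ER stress response element, those of CANX, HSPA5, HSP90B1, CALR and CRELD2. Of these genes HSPA5 passed the test while CANX, CALR and CRELD2 differed by -0.01, 0.03 and -0.06. HSP90B1 was not analysed here. The HYOU1 window held the core of the unfolded protein response element (0.729% of all windows) and the HERPUD1 window the ATF4 and C/EBP element (3.61%).

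Of 17 measured genes known as XBP1 targets in translocation, transport and degradation, none rose and 1 fell, with a median difference of -0.02. With 4.23% of all genes called, this count is near the background. SRPRB, a subunit of the signal recognition particle receptor, was 1.23-fold lower (difference -0.30, limma adjusted p = 0.0266), a call that ended when any array except negative control 3 was dropped (adjusted p = 0.0506 to 0.151), with median centring (0.101), with the replicate block (0.0558) and with all rows tested (0.134). EDEM1 and DNAJB9, a mannosidase-like degradation factor and an ER co-chaperone that restrains IRE1, differed by 0.23 and 0.22 and did not pass (limma adjusted p = 0.0694 and 0.0849), though both passed as rises with dim rows left out (adjusted p = 0.0372 and 0.0468). The degradation gene DERL1, the Golgi retrieval receptor gene KDELR3 and the translocon-associated gene SSR1 differed by -0.22, -0.30 and -0.16 without passing. With dim rows left out, however, DERL1 passed as a fall (limma adjusted p = 0.047). With a second quantile normalization, EDEM1 passed as a rise (limma adjusted p = 0.0308) and DERL1 as a fall (0.0396). Without negative control 3, 1 gene of this list rose (EDEM1) and 4 fell (SRPRB, DERL1, KDELR3 and SSR1). In that fit 10% of all genes were called. Among the 16 RefSeq windows of this list, SERP1 held the ER stress response element (0.0769% of all windows). KDELR3 held the core of the unfolded protein response element (0.729%), and SRPRB held the ATF4 and C/EBP element (3.61%).

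Of 6 measured mRNAs known from mouse, fly or human cells as IRE1 substrates, SPARC rose 1.32-fold (difference 0.40, limma adjusted p = 0.0304) and the others did not pass, with a median difference of -0.00029. Over all genes 2.48% rose and 1.74% fell. BLOC1S1, the best-known of these substrates, differed by -0.25 (limma adjusted p = 0.157), PER1 by 0.11, COL6A1 by -0.05, PDGFRB by -0.03 and SCARA3 by 0.03. The call of SPARC was lost when negative control 1 or any of the 3 miR-130a arrays was left out (adjusted p = 0.0992 to 0.141) and with all rows tested (adjusted p = 0.123).

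The kinases' target complex and the sensors' partners were called at about the share of all genes (4.23%). None of the 8 subunits of eIF2 and of its exchange factor eIF2B passed (limma; 1 at an unadjusted p below 0.05, as had 16.5% of all genes), with a median difference of 0.06; EIF2S2, the beta subunit, was 0.22 higher (adjusted p = 0.224) and EIF2B3 0.07 higher. Of 23 measured partners and regulators of the sensors, NFYA, a subunit of the factor that binds beside ATF6, was 1.20-fold lower (difference -0.27, limma adjusted p = 0.0351), none rose, and the median difference was -0.00057. Leaving out negative control 1 or any of the 3 miR-130a arrays ended this call (adjusted p = 0.126 to 0.185), as did median centring (0.106), the replicate block (0.0725) and testing all rows (0.168). Its partner NFYB was 0.29 higher (adjusted p = 0.0892), the ER-anchored factor CREB3L2 0.25 lower (difference -0.25, adjusted p = 0.0542), and NCK1, an adaptor of IRE1 and eIF2 complexes, 0.14 higher. CREB3L2 passed as a fall with dim rows left out (limma adjusted p = 0.0282), with a second quantile normalization (0.0264) and without negative control 3 (0.0132). These fits called 8.7%, 5.01% and 10% of all genes. NFYB passed as a rise without negative control 3 (limma adjusted p = 0.0412). The Golgi protease gene MBTPS2, which cleaves ATF6, differed by -0.08 and the mitochondrial protease OMA1, which acts upstream of HRI, by -0.07.

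**Figure D4:**
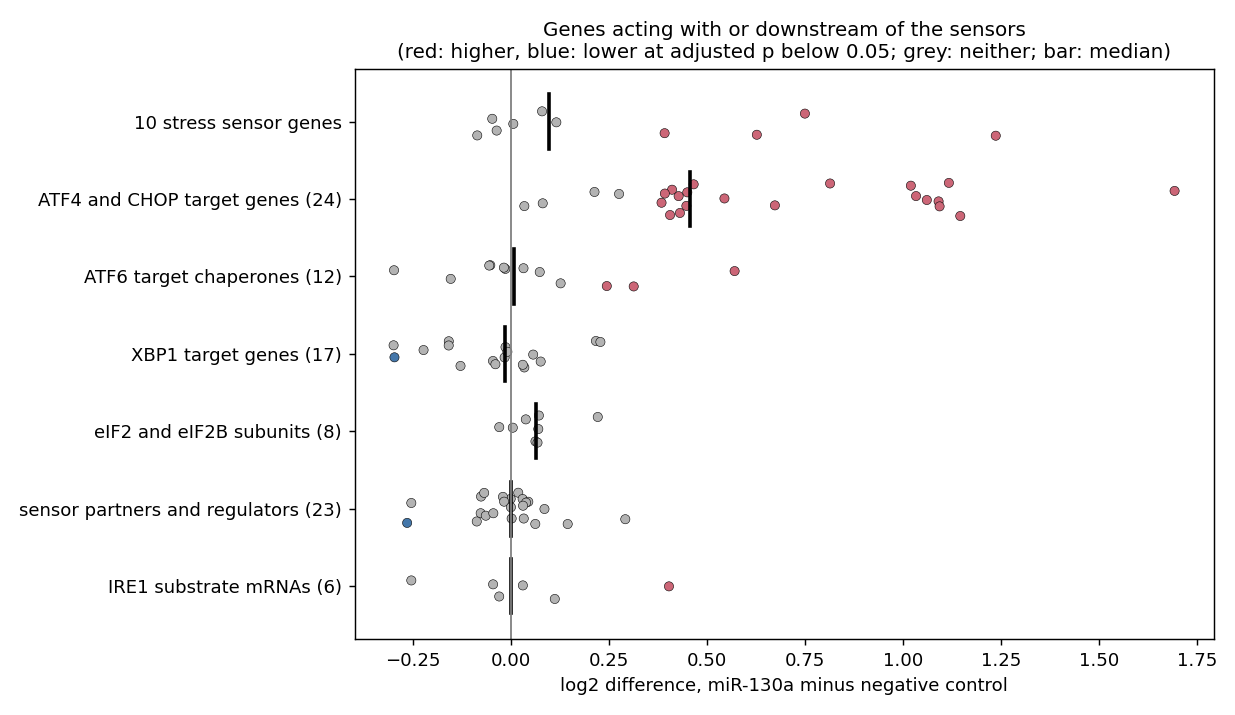
Difference of mean log2 values, miR-130a minus negative control (horizontal axis), of each measured gene in the 10 stress sensor genes and the 6 lists (rows; the number measured in brackets). Red and blue points are rises and falls at an adjusted p below 0.05, grey points did not pass, and the black bar is the median: 0.46 for ATF4 and CHOP targets, 0.01 for ATF6 targets and -0.02 for XBP1 targets.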

How the data were processed

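Total RNA of 6 PC3 cultures was amplified and labelled with biotin (GeneChip WT PLUS reagents), per the labels' protocols. The deposited table holds log2 expression values made by the authors with RMA (background correction, quantile normalization, probe summarization); the submitters' processing notes name Affymetrix Expression Console and no versions; the log2 scale was read from the range of the values. Of 70753 rows, 67528 held values, and 23781 of these carried 1 gene symbol in GEO's platform annotation. Symbols were updated by Entrez identifier with RefSeq (21497 rows matched), and the row with the highest mean over the 6 arrays stood for a gene, which left 22465 genes. Each gene was tested in limma (3.58.1, under R 4.3.3) by lmFit and eBayes (two-sided, Benjamini-Hochberg over all genes, threshold 0.05). This fit was run on simulated data with independent errors. How well it recovered changes of a given size is not reported here. Changes as small as those of XBP1, HSPA5 and HYOU1 were not simulated. SE is the moderated standard error. Array summaries compress folds. The number of arrays limits the precision. Members and lists were chosen with earlier results of these data known. Named genes are the 10 members, the 6 list members with the smallest p, and the 6 genes closest to ERN1 by root mean square difference; others are said to be named after their values were seen or serve a motif, marker or paralog remark. Alternatives were a replicate block, leaving out each array, dim rows left out, quantile normalization once more, arrays centred on their medians, averaging a gene's rows, trend and robust options, and testing all rows. Motifs were searched in RefSeq start windows (GRCh38.p14). The mature miR-130a-3p sequence is named only.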

Additional observations from a re-analysis of the deposited data

How the results depend on the processing

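Of 130 results for the 10 genes under 13 alternatives, 127 kept their side of the threshold, and 3 no longer passed it, all for XBP1. ERN1 (differences 1.19 to 1.29), PPP1R15A (0.73 to 0.77) and PPP1R15B (0.54 to 0.68) passed under all 13. Leaving out 1 array each gave 237 to 2252 genes over all genes, 3 or 4 of the 10 genes, 1 to 3 ATF6 targets, 0 to 5 XBP1 targets, 0 to 3 partners and regulators and 0 or 1 IRE1 substrates; the fits also have fewer arrays. Over all genes, median centring gave 520 calls and trend and robust options 1449. Testing all rows gave 448 calls, which are rows among the 67528 with values and not genes. The share of all genes called was 4.23% in the fit reported above, 3.64% with the replicate block and 8.7% with dim rows left out. It was 5.01% with a second quantile normalization and 2.31% with median centring. The list counts below are to be read beside these shares. For trend and robust options the base is 1449 calls among 22465 genes, and for all rows 448 calls among 67528 rows. XBP1 targets numbered 0 with the replicate block, 4 with dim rows left out, 3 with a second quantile normalization, 0 with median centring, 3 with trend and robust options and 0 with all rows. Partners and regulators numbered 0 with the replicate block, 2 with dim rows left out, 2 with a second quantile normalization, 0 with median centring, 3 with trend and robust options and 0 with all rows. With all rows 1 ATF6 target and 0 IRE1 substrates passed. All rows add tests to adjust over; otherwise the cause was not tested. Median centring moved the rises from 558 of 950 to 384 of 520. Whether arrays of the same number share an experiment is not stated, and they were not treated as pairs: their deviations from the group means correlated at -0.07, 0.06 and 0.09, and the replicate block left the count of the 10 genes at 4 while HYOU1, SRPRB and NFYA missed the threshold.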
